A study of Homo sapiens with 18 samples.

Results

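The mRNA levels of 8 transcription factors of the bile duct and liver, SOX9, SOX4, HNF4A, ONECUT2, FOXA1, FOXA2, GATA6 and KLF5, were examined in cultured human cholangiocarcinoma cells, which are cells of bile duct cancer. The 8 genes were chosen by name from the 36601 genes of the deposited count tables, and each was found once. The 18 libraries came from 3 lines, HuCCT1, YSCCC and KKU-100, each carrying by lentivirus either a control hairpin (shControl) or 1 hairpin against RNF213 (shRNF213#2), with 3 biological replicates per group. RNF213 encodes a very large ubiquitin ligase with an ATPase core. HuCCT1 and YSCCC were grown in RPMI and KKU-100 in a Ham's medium, so that a difference of KKU-100 from the other lines cannot be told apart from a difference in medium. A single hairpin sequence against RNF213 was used, and whether the stable cells were clones or pools, and whether each replicate had its own transduction, the sources used here do not say.

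These factors belong to the network that forms the liver and its ducts from foregut endoderm. FOXA1 and FOXA2 are forkhead factors that open closed chromatin at endodermal genes, and GATA6 is a zinc finger factor that acts beside them in the early liver bud. HNF4A is the nuclear receptor that maintains hepatocyte differentiation, and ONECUT2 is a cut homeodomain factor shared by hepatoblasts and developing ducts. SOX9 marks bile duct cells and their precursors, SOX4 acts with SOX9 in duct formation, and KLF5 is a zinc finger factor of proliferating epithelium.

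On GRCh38, as deposited, SOX9 spans chr17:72121020-72126416 and SOX4 chr6:21593751-21598619, both on the plus strand. HNF4A lies at chr20:44355700-44434596 (plus), ONECUT2 at chr18:57435374-57491298 (plus) and GATA6 at chr18:22169392-22202528 (plus). FOXA1 lies at chr14:37589552-37596059 (minus), FOXA2 at chr20:22581005-22585455 (minus) and KLF5 at chr13:73054976-73077541 (plus). Counts are of whole genes, so no value belongs to a single exon or isoform.

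Libraries held 21056732 to 25502097 counts. RNF213 checked the labels: it was lower with the hairpin in all 9 pairs of libraries with the same line and replicate number, with a mean log2 ratio of -1.01 ± 0.41 (SD, n = 9 pairs; exact two-sided sign-flip permutation test, p = 0.00391, the smallest p that 9 pairs can give). By line, the decrease passed edgeR's test in YSCCC (log2 -1.16, SE 0.13, adjusted p = 0.000307) and KKU-100 (-0.98, SE 0.15, adjusted p = 0.0462) but not in HuCCT1 (-0.89, SE 0.18, adjusted p = 0.136). Leaving out 1 replicate moved these calls. In HuCCT1 RNF213 passed each time, at -1.09 without replicate 1 (adjusted p = 0.0339), -0.56 without replicate 2 (0.000992) and -1.05 without replicate 3 (9.37e-07). KKU-100 missed the threshold when replicate 1 (-0.88, adjusted p = 0.0663) or replicate 3 (-0.89, adjusted p = 0.251) was left out. Levels are given as CPM, the counts of a gene per 1000000 counts of its library, after the library total was multiplied by a TMM factor for composition. Keratin 7 (KRT7), a duct marker, stood at a mean of 2227 CPM in HuCCT1 shControl, 646.7 in YSCCC shControl and 140.4 in KKU-100 shControl. KRT19 and EPCAM were nearly without reads in KKU-100, at 0 to 4 and 0 to 3 counts per library. Every library of the other lines held at least 10795 and 4947 counts of them. SPP1, another duct marker, was highest in KKU-100, at 409.9 CPM in shControl against 93.6 in YSCCC and 0.07 in HuCCT1. KRT8 and KRT18 stood at 578.9 and 316.0 CPM in KKU-100 shControl. Of 19 duct genes tested between the shControl lines, 15 were lower and 1 higher in KKU-100 than in HuCCT1. Of all genes, 30.1% were lower and 27.3% higher. The label of a bile duct line thus rests in KKU-100 on some duct markers, among them KRT7, but not on KRT19 or EPCAM. Of 17 stromal and immune markers, the summed level was 70.22 to 424.4 CPM in every library. CD3E averaged at most 0.07 CPM and PTPRC at most 1.22 CPM in any group, but other markers of the list were read. CD68 averaged 59.2 to 84.0 CPM over the groups, and LUM and CDH5 stood at 108.9 and 48.95 CPM in YSCCC shControl.

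In the control libraries FOXA2, GATA6 and HNF4A were highest in HuCCT1, ONECUT2 was lowest there, and SOX9 and KLF5 were lowest in YSCCC, with SOX4 highest in KKU-100. FOXA1 was the single member for which no difference between any 2 lines passed the test. With the RNF213 hairpin, log2 values by line ran from -0.51 (SOX9 in KKU-100) to 0.58 (KLF5 in YSCCC). In size they were below every difference between lines that passed the test. For FOXA1 the hairpin values in HuCCT1 (0.43) and YSCCC (0.34) were larger than its differences between lines, which reached 0.10 at most. In the paired fit KLF5 and SOX4 passed the test in YSCCC, SOX4 not in every alternative fit. No member passed in the paired fit of HuCCT1 or KKU-100, where only 0.14% and 0.443% of all genes did.

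The first 4 promoter windows printed belong to HNF4A, GATA6 and ONECUT2, which differed between HuCCT1 and both other lines, ONECUT2 in the opposite direction. The last 2 belong to KLF5, the member that rose most with the hairpin. The windows run from 250 bases before to 50 bases after each RefSeq start on build GRCh38.p14, 5′ to 3′ on the gene's strand, and 6 of the 8 members had an entry, with 8 windows in all. SOX9 and FOXA2 had none. Capitals mark letters that match 1 of 6 short motifs searched on both strands, and matches may overlap each other.
HNF4A, upstream start, chr20:44355449-44355748, plus strand: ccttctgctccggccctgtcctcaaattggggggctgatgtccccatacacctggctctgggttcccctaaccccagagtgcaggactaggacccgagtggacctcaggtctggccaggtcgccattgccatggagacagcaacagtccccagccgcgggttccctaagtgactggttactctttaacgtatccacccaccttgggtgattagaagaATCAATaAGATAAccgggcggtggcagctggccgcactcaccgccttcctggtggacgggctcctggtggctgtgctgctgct
HNF4A, downstream start, chr20:44400989-44401288, plus strand: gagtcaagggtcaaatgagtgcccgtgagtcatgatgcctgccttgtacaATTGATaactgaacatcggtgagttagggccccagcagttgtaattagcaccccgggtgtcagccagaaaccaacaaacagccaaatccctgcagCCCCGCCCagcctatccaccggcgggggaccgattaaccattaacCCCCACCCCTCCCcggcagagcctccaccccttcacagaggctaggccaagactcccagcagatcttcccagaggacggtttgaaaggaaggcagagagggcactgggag
GATA6, chr18:22169339-22169638, plus strand: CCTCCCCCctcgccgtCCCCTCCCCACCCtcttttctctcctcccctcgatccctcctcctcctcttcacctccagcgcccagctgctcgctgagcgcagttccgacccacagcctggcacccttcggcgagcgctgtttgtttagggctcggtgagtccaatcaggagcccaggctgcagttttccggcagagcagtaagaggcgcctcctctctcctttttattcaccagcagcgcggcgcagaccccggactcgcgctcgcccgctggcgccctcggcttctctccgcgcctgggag
ONECUT2, chr18:57435124-57435423, plus strand: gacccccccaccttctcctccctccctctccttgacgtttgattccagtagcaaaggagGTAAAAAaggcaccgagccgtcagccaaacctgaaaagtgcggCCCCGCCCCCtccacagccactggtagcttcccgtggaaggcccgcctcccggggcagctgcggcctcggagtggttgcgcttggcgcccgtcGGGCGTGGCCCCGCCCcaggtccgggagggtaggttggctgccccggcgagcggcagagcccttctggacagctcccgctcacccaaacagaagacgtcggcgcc
KLF5, upstream start, chr13:73054726-73055025, plus strand: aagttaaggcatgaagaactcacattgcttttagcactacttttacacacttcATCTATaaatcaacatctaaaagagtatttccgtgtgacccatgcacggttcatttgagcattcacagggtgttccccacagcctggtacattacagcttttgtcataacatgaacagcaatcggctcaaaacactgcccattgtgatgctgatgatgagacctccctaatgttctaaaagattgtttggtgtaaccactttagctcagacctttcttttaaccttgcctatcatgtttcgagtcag
KLF5, downstream start, chr13:73058755-73059054, plus strand: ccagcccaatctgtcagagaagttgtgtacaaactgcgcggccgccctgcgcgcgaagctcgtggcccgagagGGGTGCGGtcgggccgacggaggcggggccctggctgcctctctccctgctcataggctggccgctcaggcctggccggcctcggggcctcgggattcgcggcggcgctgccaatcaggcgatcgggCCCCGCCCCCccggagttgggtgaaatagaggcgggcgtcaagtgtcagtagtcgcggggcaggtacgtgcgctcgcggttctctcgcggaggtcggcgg

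Each motif is given with the share of 35116 promoter windows of the same length that held it on either strand. For forkhead factors the letters TNTTTAC were searched, and 10.8% of windows held them. The ONECUT core was taken as ATCNAT, which 17.0% of windows held. GATA factors were represented by AGATAA, found in 10.3% of windows, and SOX factors by the letters ACAAAG, found in 16.1% of them. The KLF core CCNCNCCC is common in promoters rich in G and C and was held by 56.2% of windows. The HNF4 core CAAAGTCC was the rarest of the 6, at 1.2%, and no member's window held it. The upstream HNF4A window held 1 ONECUT core and 1 GATA core close to each other. The downstream HNF4A window held 1 ONECUT core and 3 KLF cores, of which 2 overlap. ONECUT2 held 1 forkhead core and 4 KLF cores, and GATA6 held 3 KLF cores and no other match. The KLF5 windows differed in composition, with 40.7% G or C around the upstream start and 71.3% around the downstream start, against a median of 58.7% over all windows. The upstream KLF5 window held 1 ONECUT core, and the downstream one held 3 KLF cores. FOXA1 held 3 SOX and 5 KLF cores, and SOX4 held 2 KLF cores. A match describes the letters of a window and was not tested as a binding site.

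Within a line, levels of different genes were compared per transcript length with the deposited TPM, transcripts per 1000000 transcripts, as means of 3 shControl libraries. In HuCCT1 the order began with SOX9 at 95.9 ± 16.4 TPM and KLF5 at 95.6 ± 16.7 (SD, n = 3), whose libraries overlapped. SOX4 (53.7 ± 16.5 TPM), GATA6 (42.0 ± 7.9) and FOXA2 (37.7 ± 12.3) came next and overlapped each with its neighbour. FOXA1 (10.3 ± 1.4 TPM), HNF4A (5.48 ± 0.65) and ONECUT2 (0.183 ± 0.064) followed, each clear of the one above. The head of the order was shared by the lines, since SOX9, KLF5 and SOX4 held the first 3 places in each of them.

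In YSCCC SOX4 (49.4 ± 10.2 TPM), KLF5 (47.6 ± 5.6) and SOX9 (39.6 ± 8.8) overlapped at the top. FOXA1 (12.95 ± 3.16 TPM), GATA6 (7.30 ± 0.88), ONECUT2 (1.67 ± 0.26) and HNF4A (0.403 ± 0.427) followed without overlap. In KKU-100 KLF5 (178.9 ± 75.6 TPM), SOX9 (139.8 ± 32.6) and SOX4 (119.4 ± 42.6) again overlapped. Below them stood FOXA1 (10.6 ± 4.0 TPM) and GATA6 (7.99 ± 0.86), which overlapped, then ONECUT2 (1.91 ± 0.23) and HNF4A (0.669 ± 0.290). FOXA2 was listed at 0 TPM in every shControl library of YSCCC and KKU-100. The tail of the order thus separated HuCCT1, where HNF4A stood above ONECUT2, from the other lines, where ONECUT2 stood above HNF4A.

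**Figure D1:**
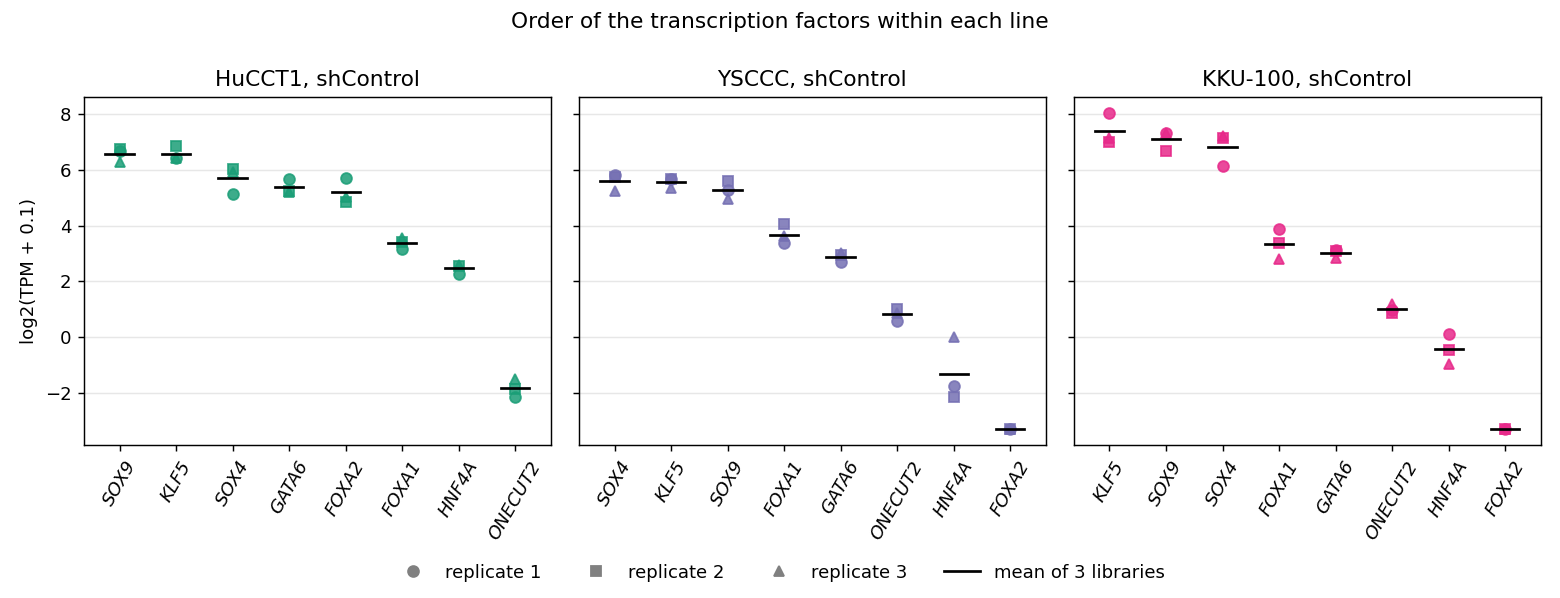
Level of each factor in the 3 shControl libraries of each line, as log2(TPM + 0.1) on the vertical axis, with factors ordered by mean TPM on the horizontal axis, 1 symbol per replicate and a bar at the mean of the plotted values. SOX9, KLF5 and SOX4 fill the first 3 places in each line, and FOXA2 drops from rank 5 in HuCCT1 to rank 8, at 0 TPM, in YSCCC and KKU-100.

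Levels of 1 gene were then compared between lines in the 9 shControl libraries, in CPM scaled for composition, with edgeR's quasi-likelihood test and Benjamini-Hochberg adjustment over 18010 genes; a gene was called at an adjusted p under 0.05. Against HuCCT1, 6 of 8 members were called in YSCCC, 1 higher and 5 lower, where 58.4% of all genes tested were called. In KKU-100 6 of 8 members were called against HuCCT1, 3 higher and 3 lower, with 57.4% of all genes called. FOXA2 is counted among the lower members in both comparisons. It passed the count filter through HuCCT1 alone, where it is high, so that its calls follow from that filter and add no support. Between KKU-100 and YSCCC 3 of 7 members tested were called, all higher in KKU-100, with 60.7% of all genes called. With most genes called in each comparison, the members' counts are no sign that they stand out, and the values describe which lines carry which factor.

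FOXA2 was present in HuCCT1 and nearly without reads elsewhere. Its shControl counts in HuCCT1 replicates 1, 2 and 3 were 1473, 744 and 934, or 60.2, 34.8 and 38.0 CPM, and the hairpin libraries had 918, 829 and 959 counts. All 6 KKU-100 libraries had 0 counts, and the YSCCC libraries had 0 except for 1 count in shRNF213#2 replicate 1. Taking 3 counts over the group as the limit that a count of 0 allows, HuCCT1 shControl (44.3 ± 13.8 CPM) was at least 1150-fold higher than YSCCC shControl and at least 922-fold higher than KKU-100 shControl; such limits cover counting error only. The neighbouring long non-coding RNA LINC00261 was likewise at 12.3 ± 4.7 CPM in HuCCT1 shControl and at 0 counts in every library of YSCCC and KKU-100. Apart from that 1 count of FOXA2, both RNAs of this locus were read in HuCCT1 alone.

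GATA6 stood at 61.8, 49.5 and 41.7 CPM in the HuCCT1 shControl replicates, at 6.77, 7.65 and 7.27 in YSCCC and at 9.31, 9.75 and 8.49 in KKU-100. No library of one line overlapped another line, in either hairpin arm. GATA6 was 7.2-fold lower in YSCCC than in HuCCT1 (log2 difference -2.85, SE 0.20, edgeR adjusted p = 2.37e-06) and 5.56-fold lower in KKU-100 (-2.48, SE 0.20, adjusted p = 3.84e-06). The KKU-100 and YSCCC difference of 0.37 (SE 0.19) did not pass (adjusted p = 0.114), although it did between the shRNF213#2 libraries (0.57, adjusted p = 0.0137). Its opposite-strand neighbour GATA6-AS1 was also highest in HuCCT1, with 6.44 CPM in HuCCT1 shControl, 0.76 in YSCCC and 0.32 in KKU-100. GATA6-AS1 overlaps GATA6, and the sources do not say whether reads were counted by strand, so reads of this pair cannot be told apart.

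HNF4A was a low-count gene in all lines. Its HuCCT1 shControl libraries gave 190, 170 and 188 counts, or 7.76, 7.96 and 7.65 CPM. YSCCC gave 14, 10 and 47 counts and KKU-100 gave 57, 40 and 27. Every HuCCT1 library of either arm lay above every library of the other lines. HNF4A was 8.85-fold lower in YSCCC (log2 difference -3.15, SE 0.54, edgeR adjusted p = 0.000614) and 3.88-fold lower in KKU-100 (-1.96, SE 0.51, adjusted p = 0.00735). Replicate 3 of YSCCC stood apart, at 1.71 CPM in shControl and 1.84 in shRNF213#2, against 0.154 to 0.578 in the other 4 YSCCC libraries. Without that shControl library, the difference between KKU-100 and YSCCC, 1.19 (adjusted p = 0.0722) with all libraries, came to 2.04 (adjusted p = 0.00258).

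ONECUT2 was lowest in HuCCT1, where HNF4A was highest. HuCCT1 shControl libraries held 24, 32 and 48 counts, or 0.981, 1.497 and 1.95 CPM. YSCCC stood at 9.74, 13.5 and 11.1 CPM and KKU-100 at 14.5, 13.2 and 16.6, so that neither line overlapped HuCCT1. ONECUT2 was 7.55-fold higher in YSCCC than in HuCCT1 (log2 difference 2.92, SE 0.31, edgeR adjusted p = 2.92e-05) and 9.9-fold higher in KKU-100 (3.31, SE 0.31, adjusted p = 1.14e-05). YSCCC and KKU-100 libraries overlapped and did not pass the test in the shControl arm (0.39, SE 0.28, adjusted p = 0.243). In the shRNF213#2 arm the same contrast was 0.69 (adjusted p = 0.0127).

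SOX9 stood at 189.6, 212.8 and 142.3 CPM in HuCCT1 shControl, at 66.6, 82.7 and 48.6 in YSCCC and at 297.8, 185.6 and 289.9 in KKU-100. YSCCC lay below both other lines in every library. SOX9 was 2.81-fold lower in YSCCC than in HuCCT1 (log2 difference -1.49, SE 0.26, edgeR adjusted p = 0.000622) and 3.98-fold higher in KKU-100 than in YSCCC (1.99, SE 0.26, adjusted p = 9.67e-05). The difference of KKU-100 from HuCCT1, 0.50 (SE 0.25, adjusted p = 0.109), passed only without KKU-100 shControl replicate 2 (0.68, adjusted p = 0.0439). Between the shRNF213#2 libraries of these lines it had the opposite sign, at -0.142.

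SOX4 reached 163.0, 312.1 and 333.1 CPM in KKU-100 shControl, against 79.7, 158.8 and 136.1 in HuCCT1 and 118.6, 113.0 and 72.3 in YSCCC. All KKU-100 shControl libraries lay above those of both other lines. SOX4 was 2.15-fold higher in KKU-100 than in HuCCT1 (log2 difference 1.10, SE 0.33, edgeR adjusted p = 0.0148), a call that was lost without HuCCT1 replicate 1 (0.86, adjusted p = 0.0547) or without KKU-100 replicate 3 (0.93, adjusted p = 0.0553). Against YSCCC it was 2.71-fold higher (1.44, SE 0.33, adjusted p = 0.00354). HuCCT1 and YSCCC overlapped (-0.33, SE 0.33, adjusted p = 0.399).

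KLF5 was measured at 133.0, 187.9 and 132.9 CPM in HuCCT1 shControl, at 72.9, 73.0 and 54.0 in YSCCC and at 418.9, 193.9 and 214.5 in KKU-100. The shControl libraries of the 3 lines did not overlap, and replicate 1 of KKU-100 stood well above its other replicates. KLF5 was 2.32-fold lower in YSCCC than in HuCCT1 (log2 difference -1.21, SE 0.30, edgeR adjusted p = 0.00512) and 4.22-fold higher in KKU-100 than in YSCCC (2.08, SE 0.30, adjusted p = 0.000206). It was 1.82-fold higher in KKU-100 than in HuCCT1 (0.86, SE 0.29, adjusted p = 0.0272), which was lost without KKU-100 replicate 1 (0.43, adjusted p = 0.112), without HuCCT1 replicate 1 (0.77, adjusted p = 0.091) or without HuCCT1 replicate 3 (0.78, adjusted p = 0.0904). In the shRNF213#2 libraries the YSCCC and HuCCT1 contrast was -0.71 (adjusted p = 0.0553).

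FOXA1 gave no called difference between lines, which does not show that its levels were equal. Its shControl libraries ran from 13.03 to 16.85 CPM in HuCCT1, from 13.5 to 22.4 in YSCCC and from 10.4 to 21.9 in KKU-100, all overlapping. The differences were 0.10 (SE 0.30, edgeR adjusted p = 0.797) for YSCCC against HuCCT1, 0.00 (SE 0.30, adjusted p = 1.0) for KKU-100 against HuCCT1 and -0.09 (SE 0.30, adjusted p = 0.805) for KKU-100 against YSCCC. In the shRNF213#2 libraries KKU-100 against HuCCT1 was -0.395. FOXA1 and its paralog FOXA2 had unlike patterns, with FOXA1 read in every library and FOXA2, but for 1 count, in HuCCT1 alone.

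**Figure D2:**
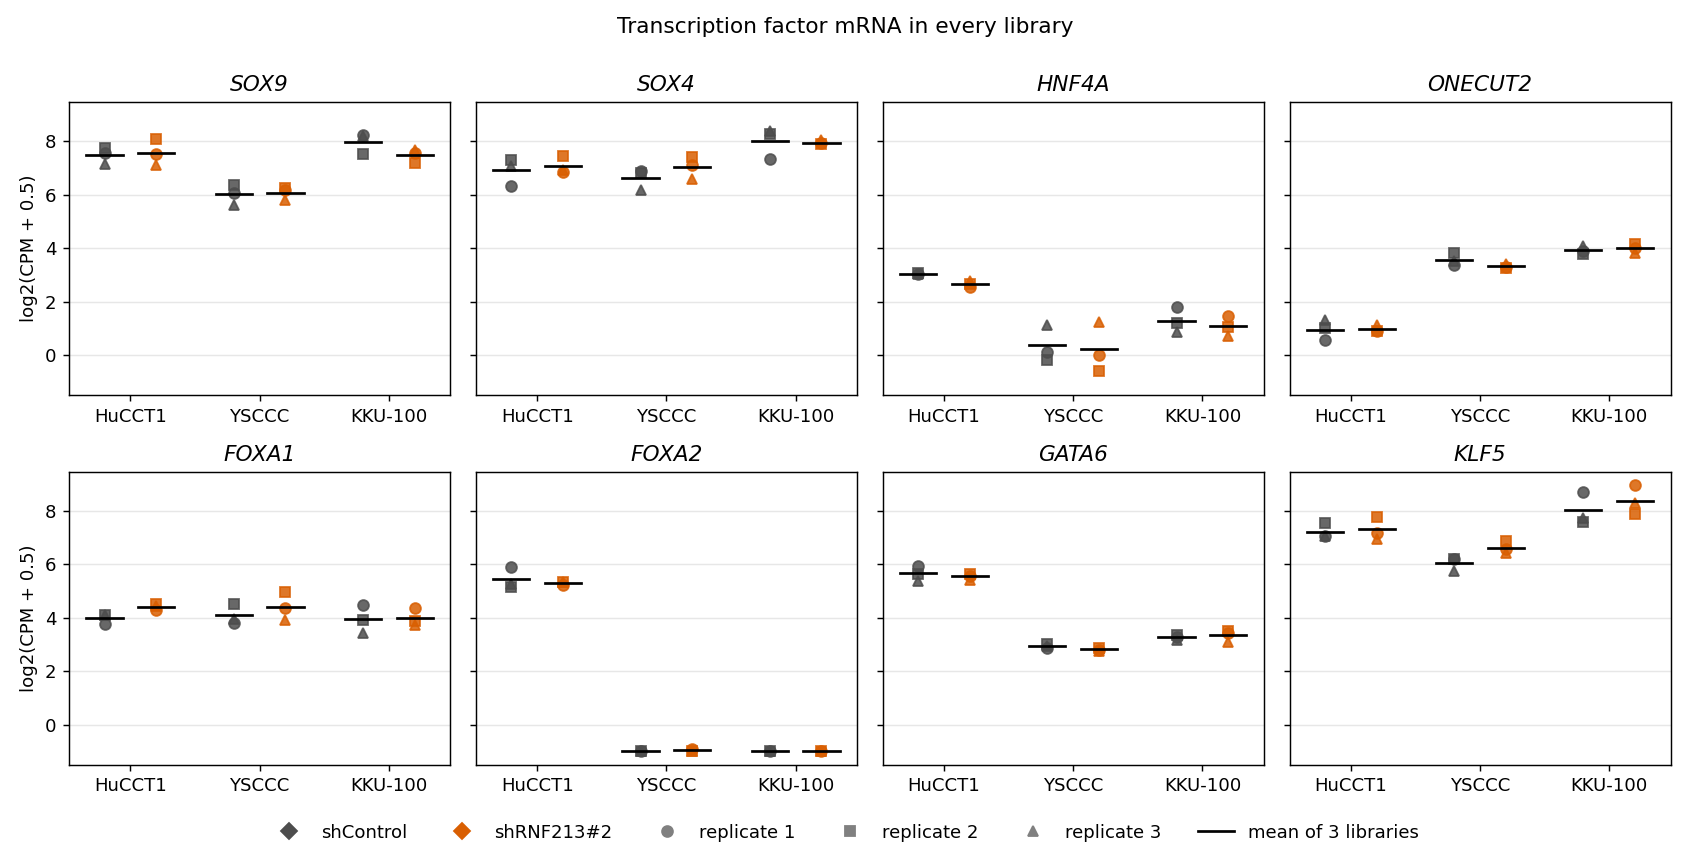
Level of each factor in all 18 libraries as log2(CPM + 0.5) on the vertical axis, by line and hairpin, with 1 symbol per replicate and a bar at the mean of the plotted values; levels are to be compared within a panel, since CPM is not corrected for length. FOXA2, GATA6 and HNF4A are highest in HuCCT1 and ONECUT2 is lowest there, while the arms of 1 line lie close together beside those steps.

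Over the 18 libraries, log2(CPM + 0.5) of FOXA2 and GATA6 had a Pearson r of 0.984 and GATA6 and HNF4A of 0.898. ONECUT2 ran against FOXA2 at -0.98 and against GATA6 at -0.941. KLF5 and SOX9 had an r of 0.83, and KLF5 and SOX4 of 0.72. These are descriptions over 18 libraries that share 3 lines and 9 replicate pairs, so that they mostly restate the steps between lines; FOXA1 correlated with no other member beyond -0.159.

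Among 11046 genes tested in every line with a mean of at least 5 CPM, the 2 most like each member in level over the 18 libraries were named. For FOXA2 these were LIMD2 (r = 0.994) and ANXA8 (0.992), for GATA6 ADAM8 (0.99) and DRAP1 (0.989), and for ONECUT2 NQO2 and SELENOM (both 0.986). HNF4A was most like XRRA1 (0.974) and CREB5 (0.97), and SOX9 most like TM4SF1 (0.956) and ATXN7L1 (0.954). KLF5 came with TMEM246 (0.956) and FRAS1 (0.948), SOX4 with ZBED1 (0.929) and SEMA4B (0.912), and FOXA1 with BOLA3 (0.743) and CDC23 (0.734). After the mean of each line and hairpin group was subtracted, which leaves the spread of replicates, HNF4A was most like SRP54 (0.964) and TCEA1 (0.962), KLF5 like BTC (0.947) and TMEM126A (0.911), and SOX4 like SH3BGRL (0.942) and MFSD14B (0.933). On the same measure FOXA1 was most like UBP1 (0.888) and BOLA3 (0.871), GATA6 like AP1AR (0.888) and JUN (0.882), ONECUT2 like RNF121 (0.877) and SLC35A5 (0.817), and SOX9 like TMEM18 (0.875) and METRNL (0.868). All these r values are the highest of a search, over libraries whose same-numbered pairs deviated together, and are descriptions only. For HNF4A, YSCCC replicate 3 stood apart in both arms, at 1.71 and 1.84 CPM.

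A list of 22 other hepatobiliary transcription factors placed the members in their network. Against HuCCT1, YSCCC had 4 of 18 tested higher and 10 lower, with a median log2 difference of -2.17 beside 0.02 over all genes, of which 30.2% were higher and 28.1% lower. KKU-100 had 7 higher and 7 lower against HuCCT1 (median 0.15 beside -0.01 over all genes, of which 27.3% were higher and 30.1% lower). Against YSCCC, KKU-100 had 8 higher and 3 lower (median 0.89 beside -0.09; 27.9% and 32.9% of all genes). Setting the genes with 0 counts in a whole group to their limit of 3 counts left these 3 medians as they were.

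HHEX, an early liver bud factor, was at 28.2 ± 1.8 CPM in HuCCT1, 0.88 ± 0.71 in YSCCC and 0 counts in KKU-100. FOXA3, the third liver forkhead factor, was at 5.65 CPM in HuCCT1, 0.037 in YSCCC and 0.080 in KKU-100. HHEX and FOXA3 therefore shared the HuCCT1 pattern of FOXA2, GATA6 and HNF4A.

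Relatives of 2 members did not follow them. GATA4, which is close to GATA6, was highest in KKU-100 at 27.0 ± 4.1 CPM, with 9.76 ± 1.44 in HuCCT1 and 0.263 ± 0.185 in YSCCC (YSCCC against HuCCT1 -5.19, SE 0.40, edgeR adjusted p = 4.65e-06; KKU-100 against HuCCT1 1.46, SE 0.31, adjusted p = 0.00232), while GATA6 was highest in HuCCT1. ONECUT3, a relative of ONECUT2, stood at 34.2 ± 7.9 CPM in KKU-100, 6.49 ± 5.13 in HuCCT1 and 0 counts in YSCCC shControl, while ONECUT1 averaged at most 0.50 CPM in any group. CEBPA, a hepatocyte and myeloid factor, was at 10.6 CPM in KKU-100, 1.99 in YSCCC and 0.11 in HuCCT1.

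**Figure D3:**
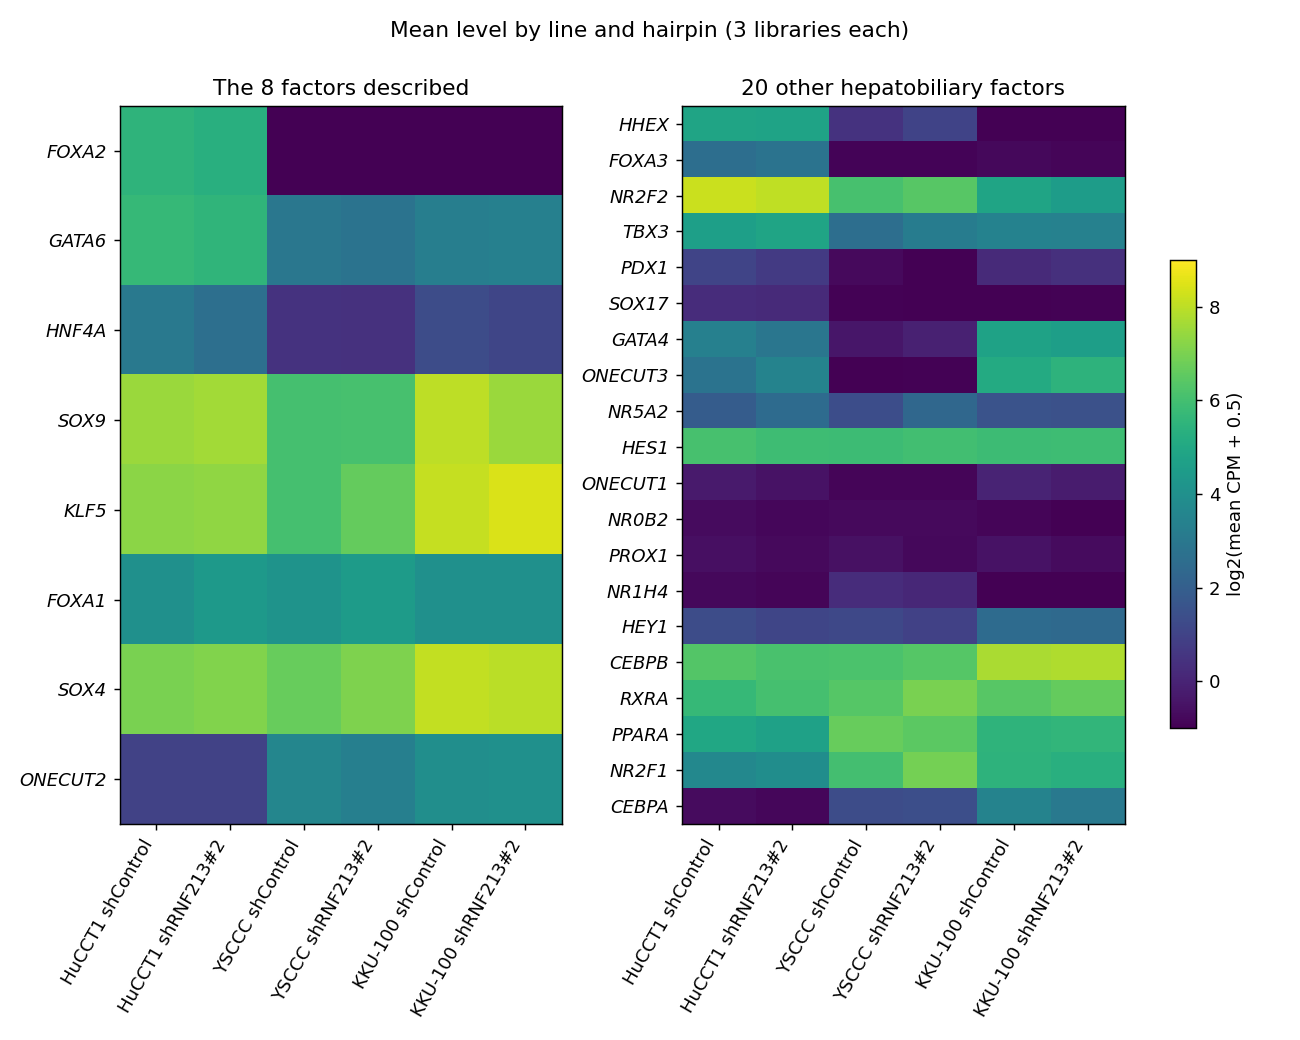
Mean level as log2(mean CPM + 0.5), in colour, of the 8 factors (left) and 20 other hepatobiliary factors (right) by line and hairpin, 3 libraries per column, each panel sorted by the difference of HuCCT1 from the mean of the other lines in shControl; rows are to be read across, since CPM is not corrected for length. The upper rows, among them FOXA2, GATA6, HNF4A, HHEX and FOXA3, are brighter in the HuCCT1 columns than in the others, and neighbouring hairpin columns differ little.

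Hepatocyte and enterocyte genes that depend on HNF4A were almost absent in all 3 lines. Of 24 such genes, 5 passed the count filter between lines, and albumin (ALB) averaged at most 0.11 CPM, apolipoprotein A1 (APOA1) at most 0.23 CPM and transthyretin (TTR) at most 0.04 CPM in any group. SERPINA1, which encodes alpha-1 antitrypsin, was the exception: it stood at 234.2 ± 33.1 CPM in HuCCT1 shControl, 4.83 ± 2.32 in YSCCC and 16.6 ± 10.1 in KKU-100. It was lower than in HuCCT1 in both YSCCC (log2 difference -5.63, SE 0.51, edgeR adjusted p = 1.15e-05) and KKU-100 (-3.82, SE 0.46, adjusted p = 6.45e-05). SERPINA1 and HNF4A were thus both lower in YSCCC and KKU-100 than in HuCCT1. Of the 5 genes tested, 1 was higher and 2 lower in YSCCC than in HuCCT1, with a median log2 difference of -0.07. In KKU-100 1 was higher and 3 lower. Of all genes, 30.2% were higher and 28.1% lower in YSCCC, and 27.3% higher and 30.1% lower in KKU-100.

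The hairpin was then compared with the control hairpin in each line, with the replicate number as pair and adjustment over all genes tested in that line. In HuCCT1 0 of 8 members were called, where 0.14% of 15747 genes were, 0.114% higher and 0.0254% lower (22 genes by edgeR, 114 by DESeq2, and 1743 genes at an unadjusted p under 0.05). In YSCCC 2 of 7 members tested rose and 0 fell, where 8.25% of 16932 genes were called, 3.69% higher and 4.56% lower. In KKU-100 0 of 7 were called, where 0.443% of 14915 genes were, 0.302% higher and 0.141% lower (66 genes by edgeR, 432 by DESeq2, and 2391 at an unadjusted p under 0.05). FOXA2 was tested in HuCCT1 alone.

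KLF5 rose in YSCCC in each pair, from 72.9 to 96.2 CPM in replicate 1, from 73.0 to 116.8 in replicate 2 and from 54.0 to 84.9 in replicate 3. All hairpin libraries lay above all control libraries. The increase was 1.49-fold (log2 0.58, SE 0.10, edgeR adjusted p = 0.00375), and in 8 alternatives the adjusted p ran from 4.36e-06 to 0.926, past 0.05 only in the fit without pairs. In KKU-100 KLF5 was higher in each pair, 418.9 to 501.1, 193.9 to 235.5 and 214.5 to 312.3 CPM, and the test did not pass (log2 0.36, SE 0.12, adjusted p = 0.217). In HuCCT1 the pair log2 ratios were 0.13, 0.23 and -0.10 (fitted 0.09, SE 0.09, adjusted p = 0.742).

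SOX4 rose in YSCCC from 118.6 to 138.0, from 113.0 to 167.9 and from 72.3 to 96.2 CPM. The arms overlapped, since replicate 3 was lower than the others in both. The increase was 1.32-fold (log2 0.40, SE 0.10, edgeR adjusted p = 0.0243), with an adjusted p of 0.0765 without replicate 1, 0.173 without replicate 2 and 0.214 in 1 fit of 18 libraries, in a range of 0.00236 to 0.999 over 8 alternatives. In KKU-100 the pairs of SOX4 split, with log2 ratios of 0.57 in replicate 1, where the control library was the lowest at 163.0 CPM, and of -0.39 and -0.35 in replicates 2 and 3. The hairpin libraries there lay close together, between 238.0 and 262.1 CPM. In HuCCT1 the ratios were 0.51, 0.13 and -0.17.

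SOX9 was lower with the hairpin in all 3 KKU-100 pairs, at 297.8 against 189.5, 185.6 against 144.8 and 289.9 against 201.6 CPM. The arms overlapped through control replicate 2. The log2 difference of -0.51 (SE 0.12) did not pass in the paired fit of that line (edgeR adjusted p = 0.119), while it did with DESeq2 (adjusted p = 0.0173) and in the fit of all 18 libraries (adjusted p = 0.0157), in a range of 0.0157 to 0.746 over 8 alternatives. In HuCCT1 and YSCCC the fitted differences of SOX9 were 0.08 and 0.06, with adjusted p of 0.77 and 0.787.

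FOXA1 was higher with the hairpin in each HuCCT1 pair, 13.03 to 18.92, 16.61 to 22.54 and 16.85 to 21.02 CPM, and the arms did not overlap. Its log2 difference of 0.43 (SE 0.11) did not pass (edgeR adjusted p = 0.222). In YSCCC it was higher in replicates 1 and 2 by 0.57 and 0.44 and level in replicate 3 at -0.02 (fitted 0.34, SE 0.14, adjusted p = 0.158); without replicate 3 the difference was 0.52 (adjusted p = 0.0128). In KKU-100 the fitted value was 0.06 (SE 0.16, adjusted p = 0.899).

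HNF4A was lower with the hairpin in each HuCCT1 pair, 7.76 to 5.29, 7.96 to 5.88 and 7.65 to 6.39 CPM, again with arms that did not overlap. With 122 to 190 counts per library, the log2 difference of -0.42 (SE 0.15) did not pass (edgeR adjusted p = 0.382). In KKU-100 all 3 pairs were lower, on 26 to 57 counts, and in YSCCC 2 of 3 were, on 4 to 51 counts, with fitted values of -0.27 (SE 0.27, adjusted p = 0.677) and -0.20 (SE 0.34, adjusted p = 0.778).

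ONECUT2, GATA6 and FOXA2 gave no call. ONECUT2 was 0.01 (SE 0.24) in HuCCT1, -0.25 (SE 0.15) in YSCCC, where all 3 pairs were lower, and 0.07 (SE 0.18) in KKU-100, with edgeR adjusted p of 0.987, 0.348 and 0.88. GATA6 was -0.12 (SE 0.10), -0.14 (SE 0.16) and 0.08 (SE 0.18) in the same order, with adjusted p of 0.69, 0.652 and 0.855, and it too was lower in all 3 YSCCC pairs. FOXA2 in HuCCT1 was -0.15 (SE 0.16, adjusted p = 0.746), with ratios of -0.70 in replicate 1, where the control library was the highest, and 0.20 and 0.08 in the others.

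**Figure D4:**
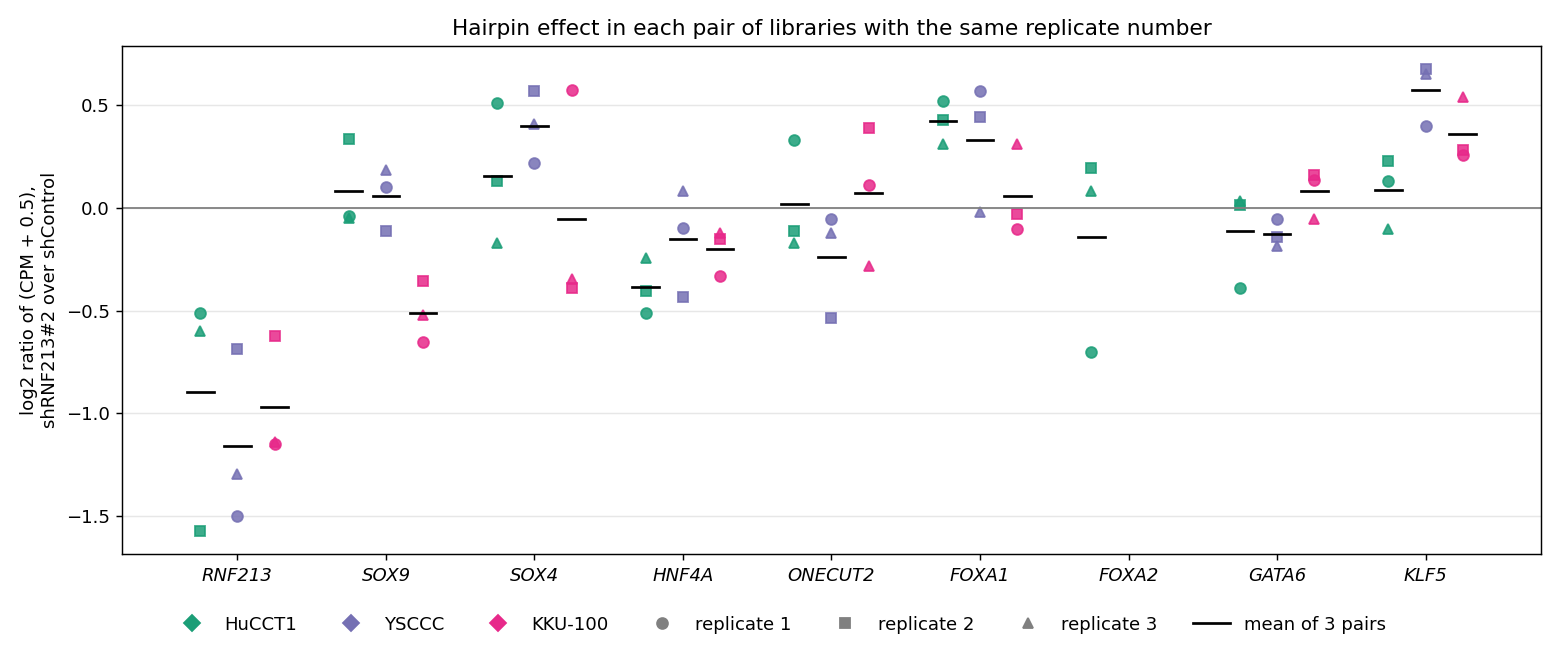
Log2 ratio of (CPM + 0.5), shRNF213#2 over shControl, on the vertical axis for RNF213 and each factor on the horizontal axis, with 1 symbol per pair of libraries, colour for the line and a bar at the mean of 3 pairs; FOXA2 is drawn for HuCCT1 alone. RNF213 lies below 0 in all 9 pairs, KLF5 above 0 in 8 of 9 and HNF4A below 0 in 8 of 9.

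Averaged over the lines in 1 fit of 18 libraries, KLF5 was the 1 member of 7 that was called, where 2.9% of 19143 genes were, 1.43% higher and 1.47% lower. Its mean log2 difference was 0.34 (SE 0.06, edgeR adjusted p = 0.00645), or 1.27-fold. The call was lost when any replicate number was left out in every line, with adjusted p of 0.0726 without replicate 1, 0.0532 without replicate 2 and 0.0581 without replicate 3, and in the fit without pairs (0.956). FOXA1 followed at 0.28 (SE 0.08, adjusted p = 0.0787) and HNF4A at -0.29 (SE 0.14, adjusted p = 0.296).

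Taken as single values over the 9 pairs, KLF5 was higher in 8 of 9 (mean log2 ratio 0.34 ± 0.25, SD; exact two-sided sign-flip permutation test, p = 0.00781), and HNF4A was lower in 8 of 9 (-0.25 ± 0.19; exact p = 0.00781). FOXA1 was higher in 6 of 9 (0.27 ± 0.26; exact p = 0.0312). The other 4 members gave exact p of 0.215 for SOX4, 0.289 for SOX9, 0.371 for GATA6 and 0.617 for ONECUT2. These 7 tests were not adjusted, and the ratios are on the scale of log2(CPM + 0.5), which understates the change of a low gene such as HNF4A.

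The hairpin effect of a member did not pass the test of a difference between any 2 lines. The counts were 0 of 7 for YSCCC minus HuCCT1 (0.047% of 19143 genes called, 0.0366% higher and 0.0104% lower, 9 genes, with 1690 at an unadjusted p under 0.05), 0 of 7 for KKU-100 minus HuCCT1 (0.235%, with 0.162% higher and 0.0731% lower, 45 genes, with 2391) and 0 of 7 for KKU-100 minus YSCCC (2.63%, with 1.64% higher and 0.993% lower, 503 genes, with 3477). The difference nearest to the threshold was that of SOX9 in KKU-100 minus YSCCC, -0.57 (SE 0.15, edgeR adjusted p = 0.058), which passed without replicate 2 (-0.73, adjusted p = 0.0371) and without a filter on low counts (-0.56, adjusted p = 0.0408). KLF5 in YSCCC minus HuCCT1 was 0.49 (SE 0.14, adjusted p = 0.262). The calls of KLF5 and SOX4 in YSCCC are therefore not shown to be particular to that line.

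Of the other hepatobiliary factors, 0 of 16 were called in HuCCT1 and 0 of 13 in KKU-100, where 0.14% and 0.443% of all genes were. With so few genes called in these 2 lines, a count of 0 in this or a later list says little about the list. In YSCCC 4 of 13 rose and 0 fell, where 3.69% of all genes tested rose and 4.56% fell, with a median log2 difference of 0.31 beside 0.01 over all genes. These were NR5A2, a nuclear receptor of bile acid and steroid genes (1.12, SE 0.20, edgeR adjusted p = 0.00528), the orphan nuclear receptor NR2F1 (0.75, SE 0.12, adjusted p = 0.00294), the T-box factor TBX3 (0.67, SE 0.17, adjusted p = 0.0325) and RXRA, the shared partner of many nuclear receptors (0.64, SE 0.09, adjusted p = 0.00133). Over the lines, RXRA (0.41, SE 0.05, adjusted p = 0.00087) and NR5A2 (0.56, SE 0.13, adjusted p = 0.0275) were 2 of 19 called. Of all genes tested over the lines, 1.43% were called higher and 1.47% lower.

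Among 20 SOX and KLF relatives, YSCCC had 1 of 14 tested higher and 2 lower, where 3.69% of all genes were higher and 4.56% lower. KLF13 fell by 1.33 on the log2 scale (SE 0.16, edgeR adjusted p = 0.000415) and KLF6 by 0.68 (SE 0.12, adjusted p = 0.00395), while KLF7 rose by 0.78 (SE 0.17, adjusted p = 0.0128). KLF5 thus rose in the same libraries in which KLF13 and KLF6 fell. The hairpin effect on KLF13 differed between KKU-100 and YSCCC by 1.37 (SE 0.20, adjusted p = 0.005), and that on KLF7 by -0.95 (SE 0.22, adjusted p = 0.0337). In HuCCT1 0 of 15 and in KKU-100 0 of 16 were called.

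Of 20 foregut, intestinal and squamous factors, 2 of 15 rose and 2 fell in YSCCC, where 3.69% of all genes rose and 4.56% fell, and 0 of 16 and 0 of 10 were called in HuCCT1 and KKU-100. ELF3, an epithelial ETS factor, rose by 0.51 (SE 0.11, edgeR adjusted p = 0.0145) and SOX2, a low gene there, by 1.10 (SE 0.28, adjusted p = 0.0304). TP63, the squamous and basal factor, fell by 0.62 (SE 0.10, adjusted p = 0.0036). The hairpin effect on TP63 differed between KKU-100 and YSCCC by 1.57 (SE 0.24, adjusted p = 0.00557).

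HNF4A-dependent genes and duct genes were called in YSCCC in small numbers. SERPINA1 was 1 of 4 HNF4A-dependent genes tested to be called, and it rose by 0.99 (SE 0.16, edgeR adjusted p = 0.00277) while HNF4A itself was not called. Of 16 duct genes tested 2 rose and 0 fell, where 8.25% of all genes were called in YSCCC, 3.69% higher and 4.56% lower. These were SPP1 (0.95, SE 0.20, adjusted p = 0.0108), which encodes osteopontin, and the mucin MUC1 (0.44, SE 0.11, adjusted p = 0.0248). In HuCCT1 0 of 3 HNF4A-dependent and 0 of 18 duct genes were called, and in KKU-100 0 of 4 and 0 of 10.

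Some libraries stood apart in ways that crossed the arms. In HuCCT1 replicate 2, the summed level of 20 interferon-stimulated genes was 9572 CPM in shControl and 9671 in shRNF213#2, against 888.7 to 1548 in the other 4 libraries, and SOX9, SOX4 and KLF5 were highest in that replicate in both arms. RNF213 itself stood at 1260 CPM in that shControl library, against 394.4 and 429.6 in the others. In YSCCC replicate 3, 18 ATF4 and endoplasmic reticulum chaperone genes summed to 6557 and 5410 CPM, against 1936 to 2200 elsewhere in the line. That replicate had the highest HNF4A and the lowest SOX9, SOX4 and KLF5 of its line in both arms. In KKU-100 replicate 1 the same 18 genes summed to 8238 and 7655 CPM, against 5415 to 6521 in the other KKU-100 libraries, and KLF5 was highest there in both arms, at 418.9 and 501.1 CPM. With the hairpin, 3 of 20 interferon-stimulated genes fell in KKU-100 and 0 rose, where 0.141% of all genes fell. Stromal and immune markers had 2 of 13 higher and 2 of 13 lower in YSCCC with the hairpin, where 3.69% of all genes were higher and 4.56% lower. In HuCCT1 and KKU-100 0 of them were called, where 0.14% and 0.443% of all genes were. The part of these states in the members' values was not tested beyond leaving out each replicate.

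Genes on the opposite strand overlap 5 of the 8 members, SOX9 (SOX9-AS1), SOX4 (AL512380.2), HNF4A (HNF4A-AS1 and AL117382.2), FOXA1 (TTC6) and GATA6 (GATA6-AS1 and 2 further genes). The sources used here do not say whether reads were counted by strand, so reads of such pairs cannot be told apart. SOX9-AS1 averaged at most 2.40 CPM in a group and HNF4A-AS1 at most 0.01 CPM. KLF5, ONECUT2 and FOXA2 had no overlapping gene.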

How the data were processed

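RNA of 18 libraries was analysed. The submitters' processing notes name build GRCh38 and, in no stated role, DESeq2 1.34.0, HTSeq 0.6.1p1, StringTie 2.1.6, Picard 1.139, STAR 2.5.1b and FastQC 0.11.9. The deposited tables hold raw counts, TPM, FPKM and coverage and size-factor-scaled signal columns, per the file headers; signal was not used, raw counts were tested, TPM ordered genes within a line, and FPKM was its alternative. Here edgeR 4.0.16 (R 4.3.3, filterByExpr with a minimum count of 10, TMM factors of 0.909 to 1.13) fitted each line with the replicate number as block, all 18 libraries with 9 pairs, and the 9 shControl libraries by line. Alternatives were DESeq2 1.42.0, other scaling and filters, and left-out replicates. The labels give the replicate numbers, and same-numbered libraries of a line deviated together (r of 0.404 to 0.902 in 9 of 9 pairs). Named list genes were up to 4 called genes per list and comparison, by size, at a mean of at least 1 CPM; some genes of the lists are not reported here by name. Where replicates share a culture, p-values measure only the spread between these libraries. The members and lists were chosen with earlier results of these data known.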

Additional observations from a re-analysis of the deposited data

How the results depend on the processing

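Pairing by replicate number carried the hairpin calls. With no replicate block, genes called came to 0 in HuCCT1, 0 in YSCCC and 2 in KKU-100, against 22, 1397 and 66 with it, to 28 for the mean over lines (555 with it), and to 0 for each of the 3 differences between lines (9, 45 and 503 with it); members called came to 0 in YSCCC and 0 for the mean. Without the block ONECUT2 in HuCCT1 was -0.012. In the shControl comparison a replicate block gave -0.021 for FOXA1 in KKU-100 against HuCCT1.

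With no filter on low counts, 117 genes were called in HuCCT1, 2160 in YSCCC, 193 in KKU-100 and 907 for the mean, and 125, 273 and 894 for the differences YSCCC minus HuCCT1, KKU-100 minus HuCCT1 and KKU-100 minus YSCCC, the last with 1 member (SOX9). FOXA1 in KKU-100 against HuCCT1 was then -0.008. DESeq2 called 114 genes in HuCCT1 and 432 in KKU-100, with 1 member there (SOX9). A fit of all 18 libraries called 8 genes in HuCCT1, 782 in YSCCC with 1 member (KLF5), and 846 in KKU-100 with 1 member (SOX9). In the 9 shRNF213#2 libraries 5 members differed between KKU-100 and YSCCC, and KKU-100 against HuCCT1 was -0.142 for SOX9 and -0.395 for FOXA1.

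Leaving out each replicate in turn gave 18 to 335 genes called in HuCCT1, 313 to 1856 in YSCCC with 1 to 3 members, 9 to 420 in KKU-100, and 55 to 355 for the mean with 0 members each time. For the differences it gave 0 to 8, 0 to 22, and 35 to 320 genes, the last with 0 to 1 members. Log2 differences that changed sign ranged in HuCCT1 from -0.047 to 0.148 for SOX9, -0.018 to 0.32 for SOX4, -0.184 to 0.156 for ONECUT2, -0.321 to 0.143 for FOXA2 and -0.193 to 0.025 for GATA6. In YSCCC they ranged from -0.007 to 0.137 for SOX9 and -0.59 to 0.006 for HNF4A, and in KKU-100 from -0.36 to 0.104 for SOX4, -0.098 to 0.261 for ONECUT2 and -0.067 to 0.151 for FOXA1. ONECUT2 over the lines ranged from -0.154 to 0.034, and SOX9 in YSCCC minus HuCCT1 from -0.154 to 0.189. FOXA1 between shControl lines ranged from -0.122 to 0.239, -0.323 to 0.237 and -0.415 to 0.144. None of these sign changes was of a called value, and the cause was not tested. Low counts limit HNF4A in YSCCC and KKU-100, at 4 to 57 counts per library, and ONECUT2 in HuCCT1, at 24 to 48.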
